A study of Mus musculus with 15 samples.

Results

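Oxidative phosphorylation is carried out in the inner mitochondrial membrane by complexes I to IV, which pass electrons from NADH and succinate to oxygen while complexes I, III and IV pump protons, and by complex V, the ATP synthase, which lets the protons flow back and makes ATP. Most of the subunits are encoded in the nucleus and imported, and a few are encoded by mitochondrial DNA. Endothelial cells are known for a high rate of glycolysis, and their mitochondria are also studied as a source of signals and of reactive oxygen species, which angiotensin II (Ang II) can raise in vascular cells.

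The genes described here were the probe sets whose only annotated symbol began with Nduf followed by a, b, c, s or v (complex I), was Sdha, Sdhb, Sdhc or Sdhd (complex II), or began with Uqcr (complex III), Cox4 to Cox8 (complex IV) or Atp5 (complex V). They were 93 of 22206 probe sets, of which 19572 had a single symbol, and each of the 93 stood for a different gene. Complex I had 46, complex II 4, complex III 8, complex IV 18 and complex V 17. The choice rested on symbols and on no measured value. It also took 8 assembly factors of complex I (Ndufaf1 to Ndufaf8), and Ndufa4, which is now counted with complex IV. It took Cox7a2l as well, which takes part in respiratory supercomplexes. Of the 13 mitochondrially encoded subunits, 0 were matched, so only nuclear genes are described.

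The samples were purchased murine lymphatic endothelial cells (LECs), which the labels call a cell line and the study's text calls primary cells, grown in DMEM with 10% fetal bovine serum, and 15 arrays were hybridised. A saline control, Ang II at 500 nM for 12 h and Ang II at 500 nM for 24 h had 5 arrays each. The 500 nM is the dose of the labels, and the methods also give a lower one. The labels give no harvest time for the control, so Ang II and time in culture cannot be told apart. Nothing says that replicates came from separate cultures, so p-values measure the spread between these arrays, which may be technical. The 12 h and 24 h comparisons share the control arrays.

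The values are log2 levels after robust multi-array averaging (RMA), and array medians ran from 4.80 to 4.84. Control replicate 3 and 24 h replicate 3 stood apart, with mean correlations with the other arrays of 0.957 and 0.962. A low-signal mark of 6.26 was set at the 95th percentile of the mean levels of 487 probe sets for defensins, hair keratin-associated proteins and receptors for pheromones, tastes and trace amines, which cultured endothelial cells are not known to express. Of the lymphatic markers, 1 of 7 was above it, Ccl21a, while Prox1 (5.25 in the control), Flt4 (4.45) and Lyve1 (4.25) were not. General endothelial markers were above it in 0 of 6 cases, fibroblast and mural markers in 0 of 6, leukocyte markers in 1 of 4 (Ptprc) and epithelial markers in 2 of 4. The mean level of the lymphatic list spanned 4.69 to 4.90 in control arrays and 4.73 to 4.94 at 24 h. The defining markers of the labelled cell type were therefore mostly not above the mark. The share above it was 14.3% for the lymphatic list and 14.5% for all probe sets. The study itself reported LYVE-1 and VEGFR-3 in these cells by immunostaining, and their mRNA and that of Prox1 by qPCR.

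Of the oxidative phosphorylation genes, 21 of 93 (22.6%) were above the mark, against 14.5% of all probe sets. They were 7 of 17 in complex V, 1 of 4 in complex II, 4 of 18 in complex IV, 8 of 46 in complex I and 1 of 8 in complex III. Within complex I, 4 of 6 core subunits and 0 of 8 assembly factors were above it. Levels of different probe sets cannot be set against each other, and a gene under the mark may be expressed and poorly read by its probes.

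Nuclear genes of the respiratory chain often carry recognition letters of NRF-1, of ETS factors such as GABP, and of YY1 close to their starts, and these were looked for as a feature that the choice of genes did not use. RefSeq windows (GRCm38.p6) of 300 bases, 250 before and 50 after the start, were matched for 77 of 93 genes (82 windows). The letters searched on both strands were GCGCANGCG for NRF-1, CCGGAAG for ETS factors and ATGGCGG for YY1. The windows of 6 genes are shown, cut to the 120 bases before the start, for 5 genes whose window held such letters and 1, Cox7c, whose shown bases held none. Capitals mark the matched letters on either strand.
Sdha: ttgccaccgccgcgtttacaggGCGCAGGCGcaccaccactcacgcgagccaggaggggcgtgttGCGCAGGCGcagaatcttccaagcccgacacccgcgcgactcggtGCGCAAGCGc
Sdhd: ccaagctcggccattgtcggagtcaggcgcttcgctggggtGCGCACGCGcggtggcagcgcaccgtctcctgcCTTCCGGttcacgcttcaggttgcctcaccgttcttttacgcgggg
Ndufb7: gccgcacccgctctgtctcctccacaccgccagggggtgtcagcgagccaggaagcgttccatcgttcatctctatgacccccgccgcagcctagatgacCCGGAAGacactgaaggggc
Uqcrh: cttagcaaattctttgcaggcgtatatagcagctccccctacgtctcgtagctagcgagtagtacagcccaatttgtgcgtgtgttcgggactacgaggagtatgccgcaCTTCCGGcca
Atp5g2: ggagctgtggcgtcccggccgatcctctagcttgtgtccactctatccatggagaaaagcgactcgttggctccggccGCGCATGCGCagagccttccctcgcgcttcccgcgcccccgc
Cox7c: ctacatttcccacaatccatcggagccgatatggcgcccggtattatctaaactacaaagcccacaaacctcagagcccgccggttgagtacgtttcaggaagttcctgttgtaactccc

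The windows lie at chr13:74350241-74350360 on the minus strand for Sdha, chr9:50603850-50603969 (minus) for Sdhd, chr8:83566638-83566757 (plus) for Ndufb7, chr4:116075071-116075190 (minus) for Uqcrh, chr15:102671048-102671167 (minus) for Atp5g2 and chr13:86046796-86046915 (minus) for Cox7c. All are promoter sequence directly upstream of the annotated transcript start. Sdha held the NRF-1 letters 3 times and Sdhd held NRF-1 and ETS letters. In Atp5g2 a pair of overlapping NRF-1 matches on opposite strands forms 1 capital run.

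NRF-1 letters stood in 23 of the 82 windows (28.0%), against 6.25% of all 32851 windows and 8.58% of the 21262 windows of protein-coding genes. ETS letters stood in 19 (23.2%), against 8.86% and 11.6%. YY1 letters stood in 13 (15.9%), against 4.05% and 5.24%. At least 1 of the 3 stood in 45 windows (54.9%), against 16.6% and 21.8%. The 43 genes with any of them had a median log2 difference from control of -0.04 at 24 h, and the 34 matched genes without had 0.01. At 12 h these medians were 0.01 and 0.00. The letters are a description of the windows, and genes with and without them had medians close to 0 at both times.

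Whether respiratory genes differed with Ang II was asked with limma, fitted to the whole array of 22206 probe sets. By the F test across control, 12 h and 24 h, 0 of the 93 genes had an adjusted p under 0.05, as did 5 of all probe sets (0.0225%), and the smallest among the 93 was 0.593, for Cox6c. Unadjusted p-values were under 0.05 for 9 of them (9.68%), against 6.25% of all probe sets. These 9 were Cox6c, Cox7c, Cox7b2, Ndufc2, Atp5g3, Sdhc, Atp5b, Ndufa13 and Atp5l, which come from complexes I, II, IV and V. The count was 3 without 24 h replicate 2, 4 without 24 h replicate 3, 5 without 12 h replicate 4 and 5 without control replicate 1. Shares over all probe sets were not counted with arrays left out, here or below. Whether such moves are particular to the 93 genes therefore cannot be told.

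At 12 h against control, 0 of the 93 passed the adjusted threshold, as did 0% of all probe sets (557 higher and 534 lower at an unadjusted p under 0.05 in limma), and the smallest adjusted p among the 93 was 0.966. At an unadjusted p under 0.05, 2 were higher (2.51% of all probe sets) and 1 was lower (2.4% of all). The 5 treated and 5 control arrays of 0 of the 93 were free of overlap, against 0.689% of all probe sets. The count of 2 was 1 without 12 h replicate 5, control replicate 3 or control replicate 4, and 4 without control replicate 5. The count of 1 was 0 without 12 h replicate 1, control replicate 1 or control replicate 5, and 2 without 12 h replicate 2, 12 h replicate 5, 24 h replicate 1 or control replicate 3.

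At 24 h against control, 0 of the 93 passed, against 0.018% of all probe sets, and the smallest adjusted p was 0.473 in limma. At an unadjusted p under 0.05, 5 were higher (3.64% of all probe sets) and 5 were lower (3.46% of all). None of the 93 had arrays free of overlap, 0 against 1.07% of all probe sets. Without 24 h replicate 3 the counts were 2 higher and 1 lower. Without control replicate 1 or control replicate 5 the lower count was 1, and it was 3 without 12 h replicate 1, 2, 3 or 4 or 24 h replicate 5.

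Between 24 h and 12 h, 0 of the 93 passed in limma, against 0.0225% of all probe sets, and the smallest adjusted p was 0.612. At an unadjusted p under 0.05, 5 were higher at 24 h (3.07% of all probe sets) and 3 were lower (2.92% of all). Arrays were free of overlap for 2 of the 93, Ndufv3 and Atp5g3, against 1.2% of all probe sets. The higher count was 2 without 12 h replicate 4, and 3 without 12 h replicate 5 or 24 h replicate 3. The lower count was 5 without control replicate 1, 2, 3 or 5.

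The precision of the arrays bounds these differences. Standard errors at 24 h ran from 0.12 to 0.27 with a median of 0.17. The 95% interval of the difference from control lay within 1 log2 unit of 0 for all 93 genes at 12 h and for 90 of 93 at 24 h. It lay within 0.5 log2 units for 56 at 12 h and 50 at 24 h. Fewer cells of a type and less RNA per cell cannot be told apart in such bulk samples.

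Over all 93 genes the median difference was 0.01 at 12 h and 0.01 at 24 h, beside 0.00 and 0.00 over all probe sets. At 24 h, 49 had a higher mean than the control, 43 a lower one and 1, Sdhd, an equal one, and 50.7% of all probe sets had a higher one. At 12 h, 49 were higher and 44 lower. The complexes differed in these counts. Complex III had a higher mean at 24 h for 8 of 8 genes, with a median of 0.17. Of these 8, read on the same arrays, only 1, Uqcrb, was above the low-signal mark, and Uqcrc2 and Uqcrq differed by 0.01. With 1 array left out at a time, 6 to 8 of the 8 were higher, and the median ran from 0.10, without 24 h replicate 4, to 0.22. Complex V had a lower mean at 24 h for 11 of 17, with a median of -0.04. Left-out arrays gave 9 to 13 lower, and medians of -0.09 without 24 h replicate 2, -0.08 without control replicate 2, -0.06 without control replicate 3 and -0.02 without control replicate 5. Complex IV had a higher mean for 12 of 18 at both times, with medians of 0.08 at 12 h and 0.06 at 24 h. Its 12 h median was 0.12 without 12 h replicate 4 or 12 h replicate 5 and 0.04 without control replicate 2. Its 24 h median was 0.13 without 24 h replicate 1, 0.09 without control replicate 5, 0.08 without control replicate 1, 0.03 without 24 h replicate 3 and 0.01 without control replicate 2. Complex I was split, 22 higher and 24 lower at both times, with medians of -0.01 and -0.03, and the latter was between 0.01 and 0.02 without control replicate 1, control replicate 3, control replicate 5 or 24 h replicate 5. Complex II had 1 higher and 3 lower at 12 h. With 1 array left out at a time, 1 to 3 were higher and 1 to 3 lower at 12 h, and the median ran from -0.10 to 0.05. Single genes at 24 h ranged from -0.51 to 0.28 in complex I, from -0.12 to 0.42 in complex II, from 0.01 to 0.37 in complex III, from -0.12 to 0.81 in complex IV and from -0.41 to 0.34 in complex V.

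**Figure D1:**
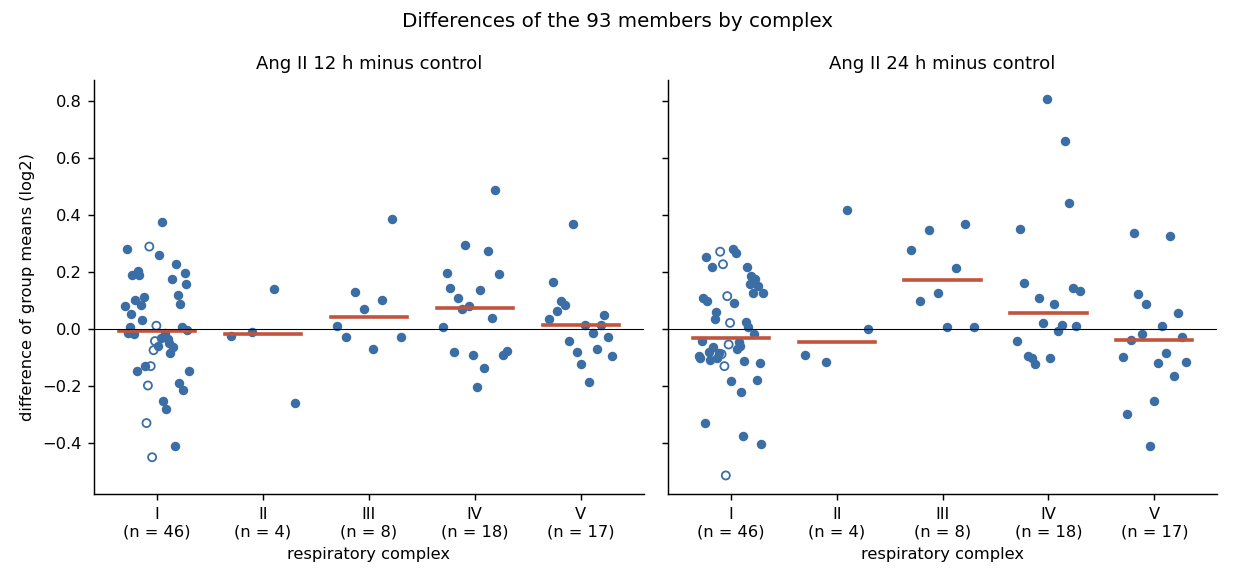
Difference of group means from the control on the log2 scale for each of the 93 genes, by complex, at 12 h (left) and 24 h (right). Filled points are subunits, open points are complex I assembly factors and red lines are medians. All 8 complex III points lie above 0 at 24 h, Uqcrc2 and Uqcrq at only 0.01, and Cox6c at 0.81 is the highest point.

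For a view by array, each gene's deviation from the control mean was taken and the median over each complex was found. Complex III medians ran from -0.13 to 0.07 on the control arrays, from -0.16 to 0.20 at 12 h and from 0.05 to 0.38 at 24 h. The 24 h range overlapped the control range, and replicate 4 was the highest of the 24 h arrays. Complex V medians ran from -0.07 to 0.08 on the control arrays and from -0.11 to -0.04 at 24 h, which also overlapped.

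**Figure D2:**
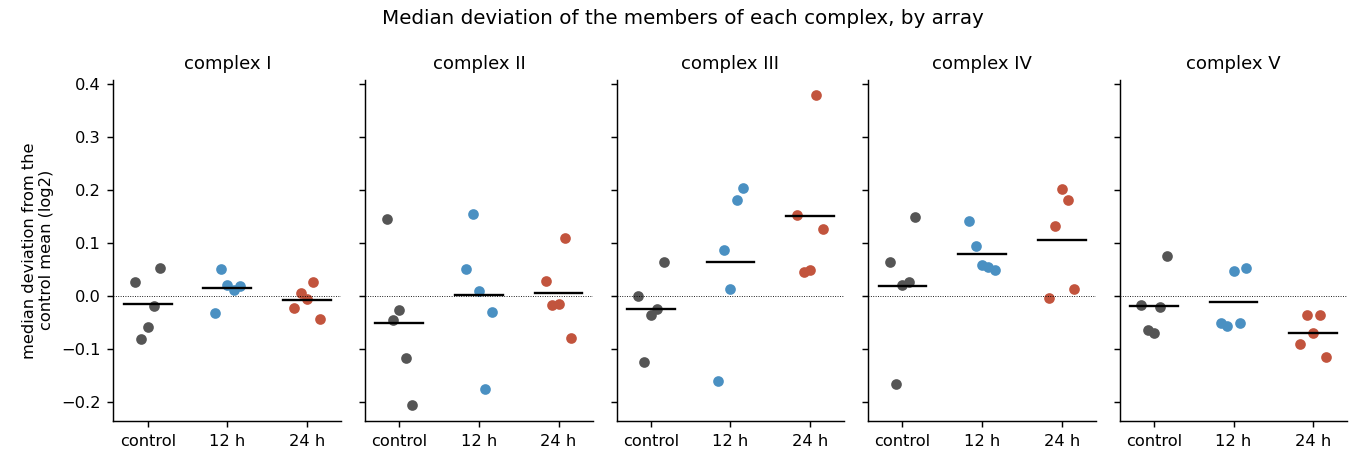
Median deviation from the control mean (log2) over the genes of each complex on each array; points are arrays and bars are group means. In complex III the 24 h arrays sit between 0.05 and 0.38 and the control arrays between -0.13 and 0.07.

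Complex I oxidises NADH, and its core subunits hold the flavin and the iron-sulphur clusters. Of 6 core subunits measured, 4 had a higher mean at 12 h and 3 at 24 h. Ndufs1, the largest iron-sulphur subunit, had means of 7.88 ± 0.22 (SD, n = 5) in the control, 8.10 ± 0.35 at 12 h and 8.03 ± 0.17 at 24 h. Ndufv1, which binds NADH, had 7.06 ± 0.40, 7.22 ± 0.25 and 6.94 ± 0.29. Neither had an unadjusted p under 0.05 in limma.

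Ndufv2, a core subunit with an iron-sulphur cluster, is named here because of its values. Its levels were 10.66, 9.75, 10.21, 10.05 and 10.66 in the control, 10.44, 10.35, 10.42, 10.16 and 9.94 at 12 h, and 9.81, 10.02, 9.32, 10.22 and 9.94 at 24 h. The groups overlapped, and 24 h replicate 3 was the lowest array. The difference at 24 h was -0.40 ± 0.19 (SE), with an adjusted p of 0.702 in limma, and it was -0.27 without 24 h replicate 3.

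The accessory subunits surround the core and are needed for its assembly and stability. Of the 32 Nduf genes that were neither core subunits nor assembly factors, 16 had a higher mean at 12 h and 15 at 24 h. The 32 include Ndufa4, now counted with complex IV, and Ndufa4l2. Ndufc2 had the smallest F-test p of complex I. Its levels were 5.28, 4.73, 5.21, 4.93 and 5.46 in the control, 4.57, 4.75, 4.87, 4.39 and 4.97 at 12 h, and 4.99, 5.29, 5.45, 4.77 and 5.15 at 24 h. The 12 h arrays were low, 2 of them below every control array, and the 24 h arrays lay within the control range. The difference was -0.41 ± 0.17 (SE) at 12 h and 0.01 ± 0.17 at 24 h, with adjusted p-values of 0.966 and 0.996 in limma.

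Ndufa13, also called GRIM-19, is an accessory subunit that has been linked to STAT3 and cell death. It had 5.42, 5.46, 5.14, 5.57 and 5.41 in the control, 5.40, 5.60, 5.31, 5.41 and 5.55 at 12 h, and 5.41, 4.64, 4.93, 4.97 and 5.41 at 24 h. At 24 h, replicates 2, 3 and 4 were below every control array and the other 2 were within the control range. The 24 h difference was -0.33 ± 0.15 (SE), adjusted p = 0.696 in limma.

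Ndufb7, an accessory subunit of the membrane arm whose window is shown above, had 6.52, 6.15, 5.96, 6.16 and 6.36 in the control, 5.95, 6.17, 6.26, 6.25 and 6.27 at 12 h, and 6.19, 6.05, 5.41, 5.95 and 5.68 at 24 h. Of the 24 h arrays, 3 were below every control array. The difference was -0.37 ± 0.16 (SE) with an adjusted p of 0.643 in limma. Ndufa10, another accessory subunit of the membrane arm, had means of 3.64 ± 0.27 (SD), 3.92 ± 0.19 and 3.54 ± 0.27, all far under the low-signal mark. Ndufv3, a small accessory subunit, had 12 h arrays from 3.50 to 3.61 and 24 h arrays from 3.68 to 4.20, with control arrays from 3.47 to 3.92 across both.

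Assembly factors help to build complex I and are not in the finished complex. At 12 h 2 of 8 had a higher mean and 6 a lower one, with a median of -0.10, and at 24 h 4 were higher and 4 lower. Ndufaf1 had means of 4.32 ± 0.40 (SD), 3.99 ± 0.62 and 4.59 ± 0.30. Ndufaf5, which modifies a core subunit, had 4.87 ± 0.55, 4.42 ± 0.27 and 4.35 ± 0.40, and control replicate 1 at 5.75 was its highest array. Its difference at 24 h was -0.51 ± 0.23 (SE), adjusted p = 0.689 in limma, and -0.29 without that array.

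Complex II is succinate dehydrogenase and is also an enzyme of the tricarboxylic acid cycle. Sdhc, a membrane anchor, had 6.22, 6.06, 5.88, 5.98 and 6.59 in the control, 6.37, 6.24, 6.41, 6.30 and 6.12 at 12 h, and 6.27, 6.58, 6.97, 6.56 and 6.44 at 24 h. Control replicate 5 was above 4 of the 24 h arrays, and the other 4 control arrays were below all of them. The 24 h difference was 0.42 ± 0.16 (SE), with an adjusted p of 0.598 in limma.

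The other 3 subunits were lower or equal at 24 h. Sdhd, the second anchor, had means of 5.27 ± 0.26 (SD), 5.01 ± 0.22 and 5.27 ± 0.20. Sdha, the flavoprotein, had 5.00 ± 0.22, 4.98 ± 0.21 and 4.91 ± 0.07. Sdhb, the iron-sulphur subunit, had 4.84 ± 0.33, 4.83 ± 0.28 and 4.73 ± 0.31. Their 24 h differences were 0.00, -0.09 and -0.12, each smaller than the SD of the control arrays.

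Complex III passes electrons from ubiquinol to cytochrome c. Uqcrh, the hinge protein that helps cytochrome c to bind, had 6.33, 5.42, 5.38, 6.12 and 5.81 in the control, 5.70, 6.08, 6.42, 6.20 and 6.59 at 12 h, and 6.22, 6.09, 6.40, 6.27 and 5.93 at 24 h. Control replicates 2, 3 and 5 were below every 24 h array, and replicates 1 and 4 were within the 24 h range. The difference was 0.39 ± 0.19 (SE) at 12 h and 0.37 ± 0.19 at 24 h, with adjusted p-values of 0.966 and 0.731 in limma.

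Uqcr10, a small subunit, had 5.02, 4.91, 4.91, 4.63 and 4.70 in the control, 4.26, 4.84, 4.97, 5.11 and 5.04 at 12 h, and 5.20, 5.10, 5.24, 5.05 and 4.97 at 24 h. At 24 h, 4 of 5 arrays were above every control array. The 24 h difference was 0.28 ± 0.16 (SE), adjusted p = 0.753 in limma. Uqcrb, a ubiquinone-binding subunit, had means of 6.73 ± 0.42 (SD), 6.86 ± 0.60 and 7.08 ± 0.31, and Uqcrfs1, the Rieske iron-sulphur protein, had 5.12 ± 0.29, 5.22 ± 0.21 and 5.34 ± 0.26. The core proteins Uqcrc1 and Uqcrc2 differed from control by 0.13 and 0.01 at 24 h, and Uqcrq and Uqcr11 by 0.01 and 0.10. The smallest unadjusted p of the 8 was 0.0716 at 24 h in limma, so 0 of them were under 0.05 there. Of the array as a whole, 3.64% passed as higher at 24 h and 3.46% as lower. With shares this small, 0 of 8 does not separate complex III from the rest of the array. The list of general endothelial markers also had 6 of 6 higher means at 24 h, with a median of 0.22 and a mean level of 4.20 to 4.43 on control arrays and 4.40 to 4.80 at 24 h, and their part in the result was not tested.

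**Figure D3:**
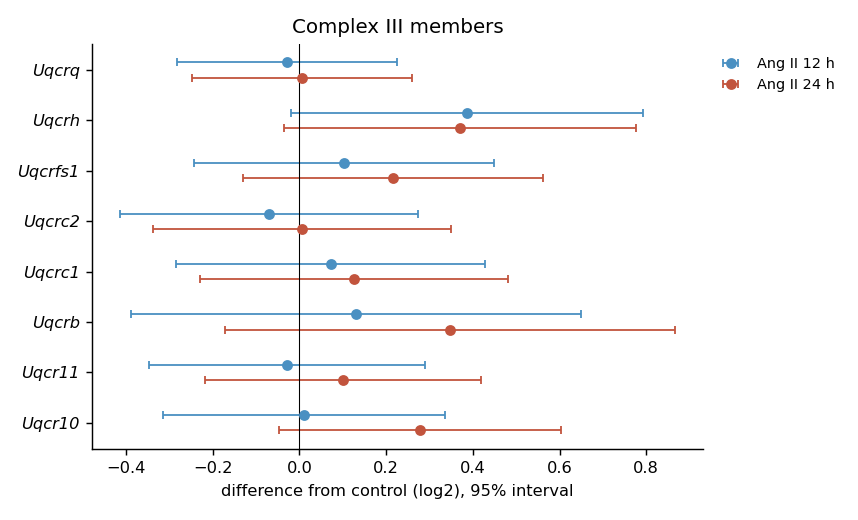
Difference from control on the log2 scale for each complex III gene at 12 h and 24 h, with 95% intervals from the limma fit. All 8 means at 24 h are above 0 and every interval includes 0. Only Uqcrb was above the low-signal mark.

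Complex IV, cytochrome c oxidase, hands electrons to oxygen. Cox6c, a nuclear subunit, had the smallest p of the 93 genes. Its levels were 6.81, 6.85, 6.70, 7.22 and 7.07 in the control, 7.33, 6.63, 6.77, 6.96 and 6.51 at 12 h, and 7.44, 8.50, 7.78, 7.98 and 7.00 at 24 h. At 24 h, 4 of 5 arrays were above every array of both other groups, and replicate 5 was within the control range. The difference at 24 h was 0.81 ± 0.22 (SE), 95% interval 0.35 to 1.27, with an unadjusted p of 0.00158 and an adjusted p of 0.473 in limma. Against 12 h it was 0.90 ± 0.22, adjusted p = 0.612. Leaving out 1 array at a time, the difference from control ran from 0.62 to 1.00. At 12 h Cox6c differed from control by -0.09 ± 0.22.

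Cox7c, a small subunit, had a higher mean at both times. It had 6.30, 5.93, 5.93, 5.47 and 6.15 in the control, 6.31, 6.92, 6.48, 6.19 and 6.32 at 12 h, and 6.38, 6.10, 6.90, 6.38 and 6.24 at 24 h. Control replicate 4 was the lowest array, and 4 of the 12 h and 3 of the 24 h arrays were above every control array. The difference was 0.49 ± 0.18 (SE) at 12 h and 0.44 ± 0.18 at 24 h, with adjusted p-values of 0.966 and 0.630 in limma.

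Cox7b2, a relative of Cox7b known from testis, had 4.66, 4.27, 4.52, 5.05 and 4.44 in the control, 4.71, 4.10, 5.02, 5.32 and 3.98 at 12 h, and 4.63, 5.45, 5.91, 5.04 and 5.21 at 24 h. The 12 h arrays spanned more than the control arrays, and 3 of the 24 h arrays were above every control array. The 24 h difference was 0.66 ± 0.25 (SE), adjusted p = 0.598 in limma, at a level under the low-signal mark in every group mean. Cox7b itself had 5.86 ± 0.70 (SD) in the control and 5.88 ± 0.29 at 24 h.

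**Figure D4:**
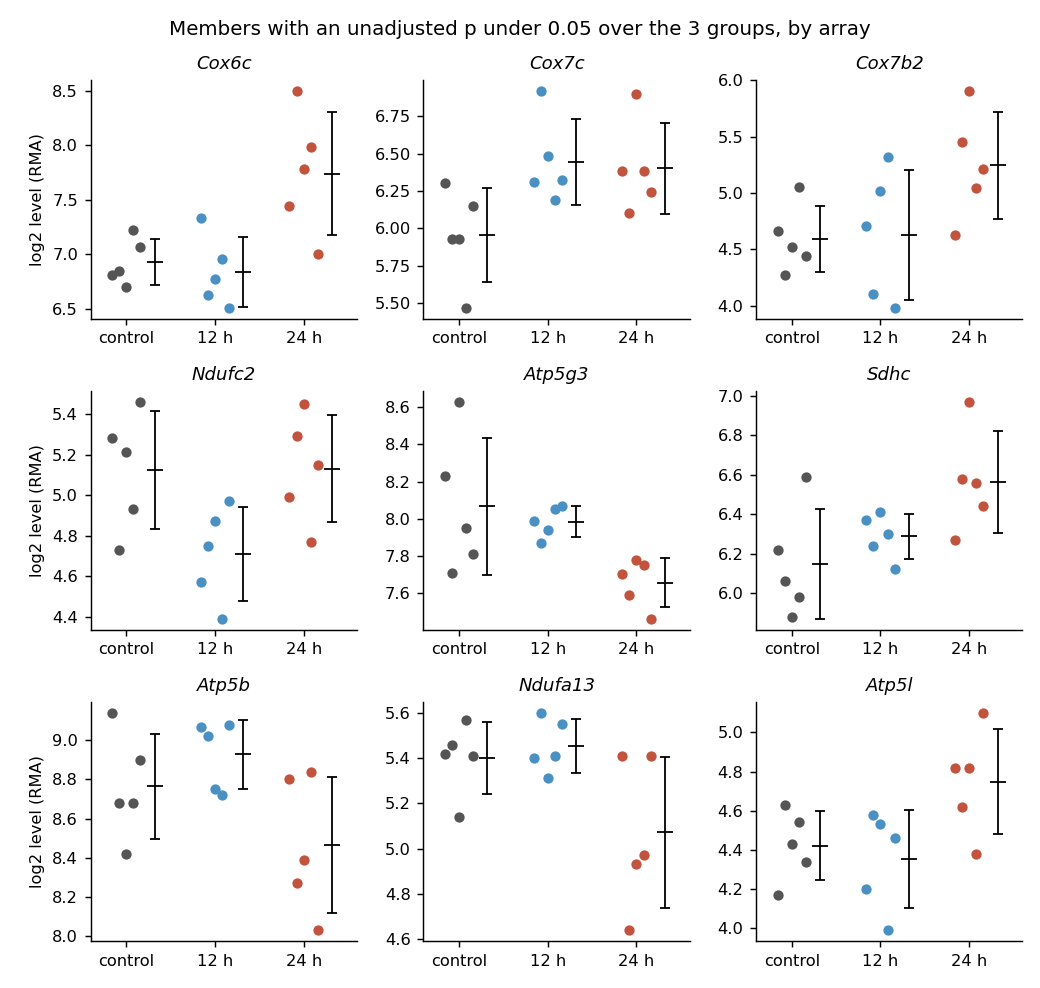
Log2 levels on each array for the 9 genes whose F-test p was under 0.05 before adjustment; points are arrays, and the bar beside each group is the mean with its SD (n = 5). The groups overlap in most panels, and 24 h replicate 2 of Cox6c, at 8.50, is the highest point of that panel.

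Besides the Cox7b pair, several complex IV subunits come as a form found in most tissues and another known from muscle, testis or low oxygen. Of the 10 forms described next, 0 had an unadjusted p under 0.05 against control in limma. On the whole array that threshold was met by 2.51% (higher) and 2.4% (lower) at 12 h, and by 3.64% and 3.46% at 24 h. At shares this low, 0 of 10 does not set these forms apart from other probe sets. Cox4i2, known from lung and from hypoxia, had means of 4.08 ± 0.25 (SD), 4.28 ± 0.34 and 4.43 ± 0.27, a 24 h difference of 0.35 ± 0.18 (SE), adjusted p = 0.724. Its common counterpart Cox4i1 differed by -0.04 ± 0.21. Cox6a1 and its muscle form Cox6a2 differed by -0.10 and -0.12 at 24 h. Cox6b1 and its testis form Cox6b2 differed by 0.11 and 0.02, and at 12 h by 0.29 and 0.08. The muscle form Cox7a1 and the common form Cox7a2 differed by -0.10 and 0.09 at 24 h. Cox8a and the muscle form Cox8b differed by 0.15 and 0.01. Of the 10, only Cox8a was above the low-signal mark, with 8.62 ± 0.29 in the control and 8.77 ± 0.14 at 24 h. Differences between the forms were not tested.

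**Figure D5:**
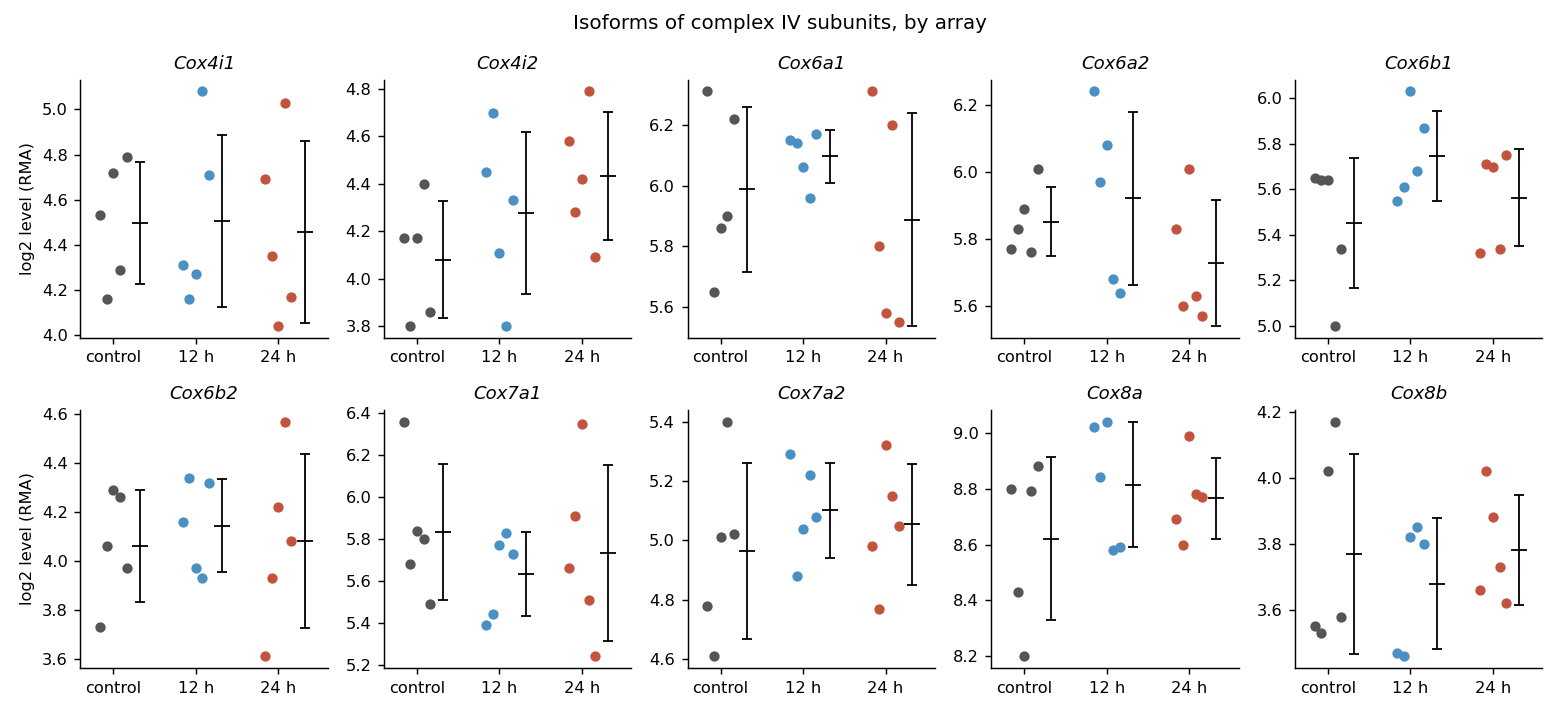
Log2 levels on each array for the isoforms of complex IV subunits; points are arrays, and the bar beside each group is the mean with its SD (n = 5). Groups overlap in every panel, and Cox4i2 shows the widest difference of means at 24 h, 0.35.

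Complex V consists of a catalytic head and a proton-driven ring of c subunits. Atp5b, the catalytic beta subunit, had 9.14, 8.68, 8.42, 8.68 and 8.90 in the control, 9.07, 9.02, 8.75, 8.72 and 9.08 at 12 h, and 8.80, 8.27, 8.39, 8.84 and 8.03 at 24 h. Replicates 2, 3 and 5 at 24 h were below every 12 h array. The 24 h mean was lower than the 12 h mean by -0.46 ± 0.17 (SE), adjusted p = 0.787 in limma, and differed from control by -0.30 ± 0.17. Atp5a1, the alpha subunit, had 10.15 ± 0.16 (SD), 10.19 ± 0.15 and 10.06 ± 0.14.

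The same mature c subunit is made from Atp5g1, Atp5g2 and Atp5g3. Atp5g3 had 8.23, 7.71, 8.63, 7.95 and 7.81 in the control, 7.99, 7.87, 7.94, 8.05 and 8.07 at 12 h, and 7.70, 7.59, 7.78, 7.75 and 7.46 at 24 h. The 24 h arrays were below all 12 h arrays, and 3 of them were below every control array, of which replicate 3 was the highest. The 24 h difference was -0.41 ± 0.16 (SE), adjusted p = 0.598 in limma, and it was -0.27 without control replicate 3.

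Atp5g2 had 6.98, 6.54, 6.87, 6.97 and 7.34 in the control, 7.40, 7.29, 7.43, 6.86 and 7.56 at 12 h, and 7.13, 7.22, 7.18, 6.97 and 6.64 at 24 h. At 12 h, 3 arrays were above every control array. Its 12 h difference was 0.37 ± 0.17 (SE), adjusted p = 0.966 in limma, and its 24 h difference 0.09 ± 0.17. Atp5g1 was nearly flat, with means of 6.88 ± 0.06 (SD), 6.84 ± 0.07 and 6.86 ± 0.25.

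Atp5l, the g subunit of the membrane part, had 4.17, 4.63, 4.43, 4.54 and 4.34 in the control, 4.20, 4.58, 4.53, 3.99 and 4.46 at 12 h, and 4.82, 4.62, 4.82, 4.38 and 5.10 at 24 h. At 24 h, 4 arrays were above every 12 h array. The 24 h mean was higher than the 12 h mean by 0.40 ± 0.16 (SE), adjusted p = 0.787 in limma. Atp5d, the delta subunit of complex V, is named here because of its values. It had 4.72 ± 0.12 (SD) in the control and 5.06 ± 0.29 at 24 h, a difference of 0.34 that was 0.23 without 24 h replicate 4.

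Genes that work with the respiratory chain were set beside it, and 0 genes of any of these lists had an adjusted p under 0.05 in limma. Over all probe sets that threshold was met by 0% at 12 h and 0.018% at 24 h. It was met by 0.0225% between 24 h and 12 h and in the F test. At such shares, 0 does not set these lists apart from other probe sets. The first list held enzymes of the tricarboxylic acid cycle and pyruvate dehydrogenase with its kinases and a phosphatase. At 24 h, 17 of its 21 genes had a lower mean, with a median of -0.12, beside 10865 of all 22206 probe sets. At an unadjusted p under 0.05 in limma, 2 were lower (3.46% of all probe sets), Pdhb (-0.52) and Dlat (-0.48). Both are parts of pyruvate dehydrogenase and lay under the low-signal mark. Pdha1 and Dld, also parts of it, differed by -0.05 and -0.04. Other assembly factors, for all complexes, had 21 higher and 19 lower of 40, and 4 higher (3.64% of all probe sets) and 1 lower (3.46%) had an unadjusted p under 0.05. Examples are Ttc19, which serves complex III, at 0.64 (adjusted p = 0.592 in limma), and Nubpl, which serves complex I, at 0.37. Carriers, channels, uncoupling proteins, supercomplex factors and their like had 8 higher and 8 lower of 16. Atpif1, the inhibitor of ATP synthase, differed by 0.47 at 12 h and 0.42 at 24 h, and the phosphate carrier Slc25a3 by 0.39 at 12 h and -0.03 at 24 h.

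A list of ubiquinone synthesis genes, cytochromes c and c1, and enzymes that pass electrons to ubiquinone (such as Dhodh and Gpd2) had 13 of 19 higher means at 12 h and 11 at 24 h, and Coq4, a factor of ubiquinone synthesis, differed by 0.46 at 12 h (adjusted p = 0.934 in limma). Coq8a, another, differed by 0.33 and -0.24. Regulators of respiratory genes had 12 of 20 lower means at 24 h. At an unadjusted p under 0.05 in limma, 1 was higher at 24 h (3.64% of all probe sets), Tfb1m at 0.46, and 1 lower (3.46%). The lower one was Gabpb1, a subunit of the ETS factor GABP, at -0.42. Hif1a, a subunit of the hypoxia factor, differed by -0.32 at 12 h. Mitochondrial antioxidant enzymes had 4 higher and 4 lower of 8 at 24 h, with a median of -0.01. Sod2 at 0.33 and Glrx2 at 0.19 were among the higher, and Msrb2 at -0.37 and Gpx4 at -0.30 among the lower. Beside the members, Ptprc, a leukocyte marker, had a 24 h difference of 0.51 with an adjusted p of 0.553 in limma. The 4 leukocyte markers did not move together, with 2 higher and 2 lower means at 24 h. Their median difference was -0.03 and the lowest was -0.30.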

How the data were processed

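Cultured murine LECs were profiled on 15 Affymetrix arrays. The deposited values are log2 levels from the authors, who read the arrays with GCOS, used the Transcriptome Analysis Console and normalized with RMA, printed with 2 decimals. RMA shrinks differences near background. The methods name another array design than the probe set IDs point to, and the sources used here name no genome build. Arrays have no read depth, so their number limits the precision.

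The values of all 22206 probe sets were fitted with limma 3.58.1 in R 4.3.3 (8.03 prior degrees of freedom), by a moderated F test and 3 contrasts, with the Benjamini-Hochberg adjustment over all of them. Python 3.11.15 (pandas 2.3.3, numpy 2.4.6) was used for descriptions. Groups came from the labels. The code was tested on simulated data. The authors' other experiments were not analysed here.

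Genes and lists were chosen with earlier results of these data known. Named were genes with an adjusted p under 0.05 and the 4 subunits of smallest F-test p in complexes I, III, IV and V. All Sdh genes and the isoforms of complex IV and of the c subunit were added. So were the 2 genes of smallest p from the Ndufaf factors and from each list. Further genes given with values, such as Ndufs1, Ndufv1, Ndufv2, Ndufv3, Cox7b, Atp5a1 and Atp5d, were outside this rule and chosen with their values known. The alternatives were a level filter, median centring, quantile normalization, array weights, a trend of variance with intensity in a robust fit, a replicate block, averaged probe sets, subunits alone, Duncan's multiple range test (named in the methods), 2-group fits and leaving out each array.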

Additional observations from a re-analysis of the deposited data

Results flagged for a closer look

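Sdhd, a membrane anchor of complex II, stood out on control replicate 1, at 5.72 against 5.10 to 5.20 on the other 4 control arrays. It was the only one of the 120 groups of 5 arrays examined for a far-off array to stand out, where chance would mark about 1 in 20.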

How the results depend on the processing

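In 26 alternative settings, 15 of which left out 1 array, 0 genes of the 93 had an adjusted p under 0.05, and the smallest adjusted p of a named gene was 0.188, for Cox6c without 24 h replicate 5. No direction of a named gene's difference that had an unadjusted p under 0.05 turned. With probe sets above the median level only, the complex medians moved to 0.016 for complex I at 24 h, 0.26 for complex II and -0.13 for complex V between 24 h and 12 h, and 3 genes were higher at 24 h than at 12 h at an unadjusted p under 0.05. Counts at that threshold also moved, from 3 lower at 24 h than at 12 h to 5 under median centring, under trend and robust settings, under Duncan's test and in 2-group fits, and at 12 h to 1 higher and 2 lower under array weights. At 12 h they also moved to 1 higher under Duncan's test and in 2-group fits, and the lower count at 24 h to 3 and 2. Leaving out both replicates 3 that stood apart, chosen after seeing the data, gave 3 genes in the F test, 1 higher and 2 lower at 12 h, 2 higher and 3 lower at 24 h and 3 higher between 24 h and 12 h. Shares over all probe sets were not counted in any alternative setting, so moves particular to the 93 genes cannot be told from general ones. Leaving out 1 array at a time gave 3 to 9 genes in the F test. At 12 h it gave 1 to 4 higher and 0 to 2 lower, and at 24 h 2 to 6 higher and 1 to 5 lower. Between 24 h and 12 h it gave 2 to 7 higher and 2 to 5 lower. The median of complex I at 12 h ran from -0.03 to 0.02, that of complex I at 24 h from -0.0385 to 0.01525 and that of complex V at 12 h from -0.0915 to 0.0485.

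With the replicate number as a block, 1 gene was higher at 12 h and 3 were lower at 24 h at an unadjusted p under 0.05, and it changed no adjusted call. No pairing by number was seen in the values. Same-numbered arrays had correlations of their deviations from -0.04 to 0.05 in 15 pairs, and 1 of 15 arrays correlated best with its own number. Whether same-numbered arrays shared a culture or a day cannot be told from these correlations.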
